A study of Mus musculus with 9 samples.

Results

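The histone cluster genes are the genes for the 5 histone types H1, H2A, H2B, H3 and H4 that lie together in 4 groups in the mouse genome. They were taken here as every gene of the deposited table whose symbol begins with Hist1h, Hist2h, Hist3h or Hist4. The rule gave 70 genes of 54347 listed, of which 67 are annotated as protein coding and 3 (Hist1h2aj, Hist1h2al and Hist3h2bb-ps) as pseudogenes. By type there were 6 H1, 20 H2A, 19 H2B, 12 H3 and 13 H4 genes. The Hist1 group holds 56 of them on chromosome 13 of GRCm38 (mm10), between 21715763 and 51203065. The upper end lies far from most of them, since every Hist1 promoter window examined below ends at 23934486 or before. The Hist2 group holds 10 on chromosome 3 (96219865 to 96270132), the Hist3 group 3 on chromosome 11 (58948920 to 58956830), and Hist4h4 is the only gene of its group, on chromosome 6 (136801553 to 136804415). A total of 65 of the 70 genes have a single exon.

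The study compared pancreatic neuroendocrine tumors of INS-p25OE mice with normal islets. INS-p25OE mice carry Ins2-rtTA, which is active in beta cells, and tetOp-p25GFP, so that doxycycline in the drinking water (begun at weaning at 3 to 4 weeks, at a concentration that the sources used here give as both 1 mg/L and 1 g/L) turns on p25, an activator of the kinase Cdk5, in those cells. RNA was sequenced from 3 functional, that is hormone-secreting, tumors (M1, M2 and M3, labelled Tumor Inulin), 3 non-functional tumors (M4, M5 and M6, labelled Tumor) and 3 islet samples of C57BL/6 mice (NI1, NI2 and NI3). M2 came from a female and the other libraries from males. The study kept all of its mice, tumor-bearing ones included, on the C57BL/6 background. Its normal controls were littermates without the transgenes, but whether the islets came from such littermates is not stated. The labels give no doxycycline for the islet mice. Each library is a separate sample by its label, a tumor holds beta-cell-derived and other cells, and the ages at collection are not given in the sources used here.

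Histones are the proteins on which DNA is wound. H2A, H2B, H3 and H4 form the core of the nucleosome, and H1 binds the linker DNA between cores. Most cluster genes are transcribed in S phase, when new DNA needs new histones. Their mRNAs end in a stem-loop instead of a poly(A) tail, and the stem-loop binding protein Slbp recognises this end. Some cluster genes also give longer, polyadenylated transcripts, which are known above all from cells that have left the cell cycle. Histone variants coded elsewhere in the genome, such as H3f3a, are made throughout the cycle from ordinary mRNAs. The study calls its method mRNA sequencing. How RNA was selected for the libraries (poly(A) capture or removal of ribosomal RNA) is not given in the sources used here. How well transcripts without a tail were captured is therefore unknown.

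The stem-loop is shown first because it marks which of these mRNAs can end without a tail. It was searched as the histone stem-loop downstream of the stop codon in GENCODE transcripts, on the coding strand. It was found in 46 of 67 coding members (68.7%), against 62 of all 22527 protein-coding genes (0.275%). Of the members without a match, 17 are annotated to end under 100 bases past the stop codon. Most of these 17 (Hist1h1b and Hist1h4k, for example) have no annotated sequence past it. The search could not find a stem-loop there, so no match does not mean that the mRNA lacks one. The 46 copies had 8 sequences of 16 bases, each with 2 arms of 6 bases that pair in full and a loop of 4 bases. The arms are in capitals and the loop in lower case below, written as DNA from 5′ to 3′.
Hist1h1c, Hist1h2ap, Hist1h2ad, Hist1h2be and 22 others: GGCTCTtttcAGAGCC
6 genes of types H1, H2B and H3: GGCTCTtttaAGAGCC
Hist1h4h and 6 other H4 genes: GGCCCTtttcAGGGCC
Hist1h4i and 1 other H4 gene: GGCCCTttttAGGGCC
2 further H4 genes: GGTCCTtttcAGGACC
The first of these occurred in 3 H1, 10 H2A, 8 H2B and 5 H3 genes, and in no H4 gene. The arms of the H4 genes differed from those of the other types in all 12 H4 genes with a match.

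Promoters were available for 62 of the 70 members (63 windows of 250 bases before to 50 after the start, from RefSeq on GRCm38.p6). The CCAAT box was found in 85.7% of the member windows against 37.4% of 32851 windows of all genes, on either strand. It was present in every window of H1, H2A, H2B and H3 genes and in 25% of the H4 windows. The TATA box (TATAAA) was found in 55.6% of the member windows against 13.6% of all windows. The octamer (ATTTGCAT) was found in 38.9% of H2A and 41.2% of H2B windows, in 0 of the H1, H3 and H4 windows, and in 1.74% of all windows. None of the 3 motifs contains another, and a match describes letters, not a bound factor. Below are 2 windows, with the 3 motifs in capitals, of genes whose log2 fold changes had opposite signs in the results that follow. That of Hist1h2ac (chr13:23683910-23684209, minus strand) also spans the whole interval to the start of Hist1h2bc, which is read in the other direction. It holds all 3 motifs, while that of Hist1h2ap (chr13:21833426-21833725, minus strand) holds the CCAAT box alone. The motifs did not divide members by sign. The window of Hist2h2aa2, with a log2 fold change below 0, also holds the CCAAT box alone. That of Hist1h2ad, with one above 0, holds the TATA box as well.
Hist1h2ac: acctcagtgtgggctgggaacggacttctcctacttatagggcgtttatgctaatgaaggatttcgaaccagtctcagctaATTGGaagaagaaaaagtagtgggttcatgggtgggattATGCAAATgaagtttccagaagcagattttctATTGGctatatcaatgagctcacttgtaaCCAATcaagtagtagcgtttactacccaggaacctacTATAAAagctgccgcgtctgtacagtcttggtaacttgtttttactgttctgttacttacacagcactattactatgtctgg
Hist1h2ap: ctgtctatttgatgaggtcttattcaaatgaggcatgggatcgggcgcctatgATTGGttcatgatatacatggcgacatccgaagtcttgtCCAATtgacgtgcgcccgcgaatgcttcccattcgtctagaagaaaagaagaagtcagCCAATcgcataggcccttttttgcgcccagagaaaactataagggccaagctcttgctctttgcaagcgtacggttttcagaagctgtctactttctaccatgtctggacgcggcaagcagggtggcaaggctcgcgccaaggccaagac

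Between 36468280 and 63637175 reads per library were assigned to genes, and histone cluster genes took 0.0136% (M2) to 0.0573% (NI2) of them. Levels are given as CPM, read counts scaled to the library's total (the usual CPM unit) and corrected by the TMM method of edgeR. A count of 3 stood for 0.0424 to 0.119 CPM. Cdk5r1, the source of the p25 fragment and so a check of the labels, was at 149 to 400 CPM in the tumors, 18.3 in NI2 and 12.5 in NI3, but at 279 in NI1. In this gene that library, called here the library labelled NI1, goes against its label. Over 15532 genes its log2(CPM + 1) values correlated with M6 at r = 0.988 (a description across genes), with NI2 at 0.932 and with NI3 at 0.920, while NI2 and NI3 correlated at 0.975. For 2 gene lists described below, its summed level lay above all tumors, as did NI2 and NI3. These were the dissociation response (972 CPM, tumors 278 to 464) and the lymphoid markers (174 CPM, tumors 19.9 to 118). For the S phase genes it lay within the tumors (1600.7 CPM, tumors 1516.4 to 2790.5). Whether this library is mislabelled or mixed was not tested. Comparisons with the islets are therefore given with this library and again after its removal, and their counts also without M6. Mitochondrial genes took 32.1% of the counts in M4 and 1.76% to 8.41% elsewhere.

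Most cluster genes had low levels. Of the 70 members, 3 had no read in any library and 35 stayed under 1 CPM in all 9. The filter for testing (at least 1 CPM in at least 3 libraries, on library totals before the TMM correction) kept 21 members, namely 3 H1, 6 H2A, 9 H2B, 1 H3 and 2 H4 genes. These 21 held 95.7% of the summed member CPM, and the 8 members with the highest means held 82.4%. Of the 49 members not tested, 8 reached 1 CPM in both NI2 and NI3 and in no other library. Of the 21, 6 reached 1 CPM in fewer than 3 tumors and so passed only with islet libraries counted (Hist1h1e, Hist1h2ac, Hist2h2aa2, Hist1h2bb, Hist1h2bh and Hist1h2br). Such a member had to be lower in tumors, so counts over the tested members do not describe all 70.

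**Figure D1:**
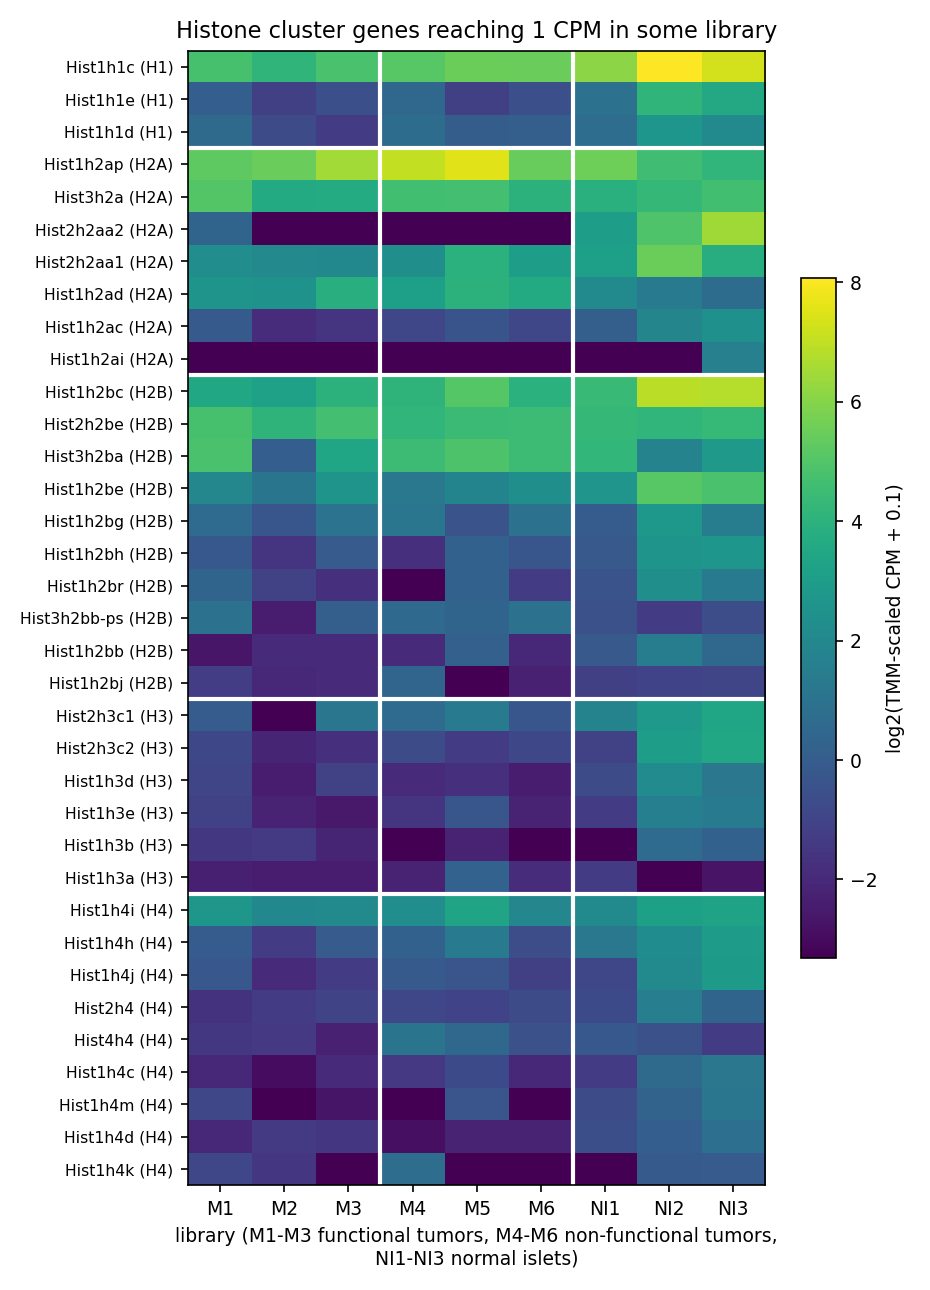
Heat map of log2(TMM-scaled CPM + 0.1) for the 35 histone cluster genes that reached 1 CPM in some library, in rows grouped by histone type and ordered by mean level, with the 9 libraries in columns. Of the 35 rows, 24 are brightest in NI2 or NI3 and 11 in a tumor, Hist1h2ap, Hist1h2ad, Hist3h2a and Hist2h2be among the latter.

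Per kilobase of the longest annotated transcript, Hist1h2ap (H2A) was highest, with a mean over the 9 libraries of 145 CPM per kb. The linker histone gene Hist1h1c had 49.3 CPM per kb, and the H2B gene Hist1h2bc had 34.2. The highest H4 gene by this measure, Hist1h4i, had 8.51 CPM per kb, and the only tested H3 gene, Hist2h3c1, had 1.73. The order differed between the groups. In tumors Hist1h2ap led with 187 CPM per kb and Hist1h1c had 21.0, whereas in islets Hist1h1c led with 106 and Hist1h2ap had 61.8.

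Near-identical copies limit how far single genes can be read. Reads were 75 bases long, and 65 of the 70 members share at least 1 window of 75 bases with another gene's transcript, 32 of them over 50% of their windows. All windows are shared in 5 members, Hist2h2aa1 and Hist2h2aa2 among them, and none in Hist1h1a, Hist1h1b, Hist1h1t, Hist2h2be and Hist2h4. Hist1h2ap shares 92.7% of its windows, Hist1h1e 28.4%, Hist1h2bc 27.1% and Hist1h1c 6.66%. The library kit does not mark strand, and 26 members overlap another annotated gene, so reads of overlapping genes cannot be told apart by strand.

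Against normal islets, the linker histone genes Hist1h1c and Hist1h1e were called lower in tumors and no member was called higher. In the quasi-likelihood test of edgeR, with p-values adjusted after Benjamini and Hochberg, 2 of the 21 tested members fell (background 0.258% of all tested genes) and 0 rose (background 0%). The log2 fold change was below 0 for 9 of the 15 members that reached 1 CPM in 3 or more tumors, with a median of -1.26, while the median over all 15532 tested genes was 0.03. It was below 0 for all 6 that passed the filter only with the islets (Hist1h1e among them), a direction the filter fixed. With no filter, 67 members were fitted, 44 of them with a log2 fold change below 0 and a median of -0.90, against 0.18 over 31582 genes, and 5 were called lower (background 0.31%). At an unadjusted p under 0.05, 13 members were lower (background 9.14%) and 2 were higher (background 10.7%). Of the 13, 6 had passed the filter only with the islets. The 15 members that reached 1 CPM in 3 or more tumors gave 7 lower and 2 higher. Without the library labelled NI1, 9 members fell (background 3.17%) and 1 rose (background 5.34%). Of the 9, Hist1h1e, Hist1h2ac, Hist2h2aa2 and Hist1h2bh had passed the filter only with the islets. Without M6, 3 members fell (background 0.876%) and 0 rose (background 0.522%). DESeq2 on the same genes called 9 lower (background 3.14%) and 2 higher (background 4.92%). The ranges of the 6 tumors and the 3 islet libraries did not overlap in 8 tested members, 7 of them lower in tumors (background 3.17%) and 1 higher (background 4.5%). Of the 7, Hist1h1e, Hist1h2ac and Hist2h2aa2 had passed the filter only with the islets.

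**Figure D2:**
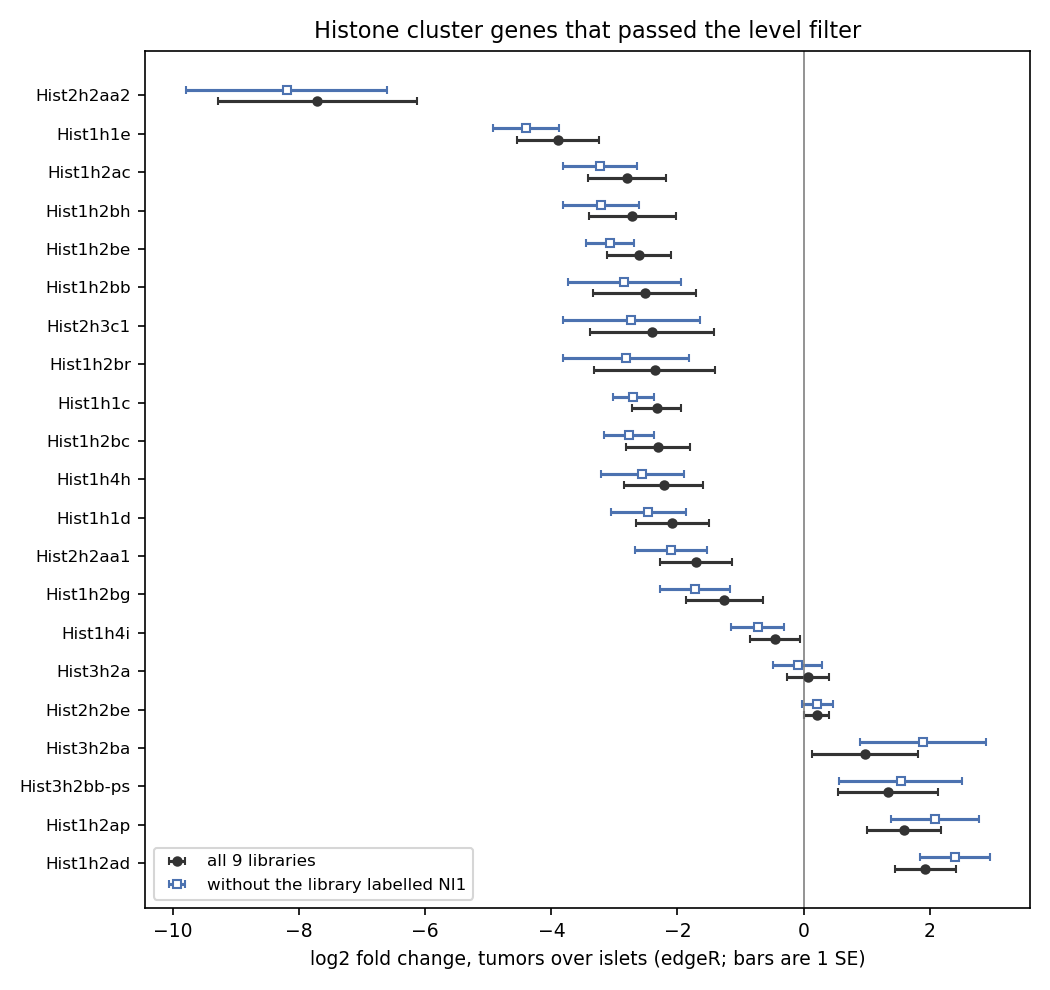
Log2 fold change of tumors over islets for the 21 tested members, with bars of 1 standard error, from all 9 libraries (filled circles) and without the library labelled NI1 (open squares). The values run from -7.71 for Hist2h2aa2 to 1.93 for Hist1h2ad, and 20 of the 21 members kept their sign without that library, Hist3h2a being the exception.

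The 3 tested linker histone genes were lower in every tumor than in every islet library. Hist1h1c (chromosome 13, 23738808 to 23740367), a somatic H1 gene that held 94.7% of the H1 sum in tumors and 91.9% in islets, was at 26.9, 17.5 and 27.5 CPM in M1, M2 and M3, at 34.3, 46.4 and 43.8 in M4, M5 and M6, and at 68.5, 270 and 156 in NI1, NI2 and NI3. The library labelled NI1 was the lowest islet value and still above all tumors. Its log2 fold change was -2.33 (SE 0.39, edgeR adjusted p = 0.0497), and -2.70 (adjusted p = 0.00339) without that library.

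Hist1h1e (chromosome 13, 23620629 to 23622558), another somatic H1 gene, was at 0.965, 0.353 and 0.581 CPM in the functional tumors, 1.35, 0.343 and 0.580 in the non-functional tumors and 1.86, 17.3 and 11.8 in the islets. Again no tumor reached the lowest islet value. The log2 fold change was -3.90 (SE 0.65, edgeR adjusted p = 0.0493), and -4.40 (adjusted p = 0.00319) without the library labelled NI1. Both H1 calls lay just under the threshold. That of Hist1h1e was lost when any of M1, M2, M3, M5, NI2 or NI3 was left out (adjusted p 0.108 to 0.311), and that of Hist1h1c also without M4 (adjusted p 0.0734), and both were lost with DESeq2 size factors (adjusted p 0.0553) and with limma-trend (adjusted p 0.0807). Hist1h1e overlaps Hist1h2be on the same strand, so part of their reads may belong to either gene.

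Hist1h1d, also a somatic H1 gene, was at 0.290 to 1.54 CPM in tumors (median 0.958) and at 1.59, 6.21 and 4.16 in the islets, and its log2 fold change of -2.08 (SE 0.58) had an edgeR adjusted p of 0.152, or 0.0360 without the library labelled NI1. The genes Hist1h1a, Hist1h1b and Hist1h1t were not tested. Hist1h1b, the gene for the H1.5 protein, had 0 to 14 reads in any library, at most 0.254 CPM.

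The H2A genes had log2 fold changes of both signs. Hist1h2ap (chromosome 13, 21833026 to 21833507) was at 38, 43.7 and 91.4 CPM in M1, M2 and M3, at 132, 191 and 42.8 in M4, M5 and M6, and at 47.0, 24.2 and 18.2 in the islets. All tumors lay above NI2 and NI3, but M1, M2 and M6 lay below the library labelled NI1. Its log2 fold change was 1.59 (SE 0.59, edgeR adjusted p = 0.194), and 2.09 (adjusted p = 0.0958) without it.

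Hist1h2ad (chromosome 13, 23574381 to 23574952), whose transcript shares 65.5% of its windows, had the same direction. It was at 5.93, 5.72 and 14.0 CPM in the functional tumors, 8.66, 15.8 and 12.4 in the non-functional tumors and 4.23, 2.44 and 1.51 in the islets, and it was the only tested member with every tumor above every islet library. It had a log2 fold change of 1.93 (SE 0.48, edgeR adjusted p = 0.145), and 2.40 (adjusted p = 0.0301) without the library labelled NI1.

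Hist2h2aa1 and Hist2h2aa2 are copies that lie near each other on chromosome 3, and reads cannot be assigned to either. Hist2h2aa2 was at 1.17 CPM in M1, at 0 in the other 5 tumors and at 8.04, 30.3 and 88.0 in the islets, and the fitted log2 fold change of -7.71 (SE 1.58, edgeR adjusted p = 0.107; 0.0185 without the library labelled NI1) rests on that split. Summed, the pair was at 5.87, 4.03 and 3.88 CPM in M1, M2 and M3, at 5.06, 15.6 and 7.99 in M4, M5 and M6, and at 16.6, 75.7 and 102 in the islets. The sum was lower in every tumor than in every islet library, M5 and the library labelled NI1 being close to each other. Gm20634, which overlaps Hist2h2aa1 and Hist2h3c1 on the same strand, was at 0.237 to 2.06 CPM in tumors and at 3.32, 38.8 and 39.0 in the islets, and how far it shares their reads was not tested.

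The remaining tested H2A genes were Hist1h2ac and Hist3h2a. Hist1h2ac was at 0.170 to 0.824 CPM in tumors (median 0.437) and at 0.992, 3.58 and 5.15 in the islets, with no overlap, and its log2 fold change was -2.80 (SE 0.62, edgeR adjusted p = 0.128; 0.0143 without the library labelled NI1). Hist3h2a was at 12.3 to 32.2 CPM in tumors (median 20.3) and at 15.1, 19.4 and 24.3 in the islets. Its log2 fold change was 0.07 (SE 0.34, edgeR adjusted p = 0.936), and -0.09 without the library labelled NI1.

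Among the H2B genes, Hist1h2bc (chromosome 13, 23684199 to 23692908) held 56.3% of the islet sum. It was at 11.1, 8.97 and 15.9 CPM in M1, M2 and M3, at 16.9, 34.0 and 15.3 in M4, M5 and M6, and at 20.7, 119 and 113 in the islets. M5 lay above the library labelled NI1, and all tumors lay below NI2 and NI3. The log2 fold change was -2.31 (SE 0.51, edgeR adjusted p = 0.130), and -2.77 (adjusted p = 0.00624) without the library labelled NI1. Hist1h2bc and Hist1h2ac share the interval printed above, and both passed the threshold once that library was left out.

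Hist1h2be was at 2.06 to 5.95 CPM in tumors (median 3.58) and at 6.04, 34.5 and 28.2 in the islets. No tumor reached an islet value, and the log2 fold change was -2.61 (SE 0.50, edgeR adjusted p = 0.0774; 0.00352 without the library labelled NI1, 0.0457 when M6 was left out). Hist1h2bh was at 0.198 to 1.05 CPM in tumors and at 0.804, 5.82 and 6.18 in the islets, and its log2 fold change of -2.72 (SE 0.69) had an edgeR adjusted p of 0.148, or 0.0158 without the library labelled NI1.

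The highest H2B gene of the tumors, Hist2h2be (chromosome 3, 96221119 to 96223738), was at similar levels in all groups and shares no window with another gene. It was at 27.2, 16.8 and 25.2 CPM in the functional tumors, 18, 21.4 and 22.7 in the non-functional tumors and 19.3, 17.8 and 19.7 in the islets. The groups overlapped, and the log2 fold change was 0.21 (SE 0.20, edgeR adjusted p = 0.588). Hist3h2ba and the pseudogene Hist3h2bb-ps, neighbours on chromosome 11, were both lowest among the tumors in M2, at 0.975 and 0.0848 CPM. In the other tumors Hist3h2ba was at 10.4 to 29.4 CPM and in the islets at 18.7, 3.34 and 6.80, with a log2 fold change of 0.97 (SE 0.84, edgeR adjusted p = 0.547). For Hist3h2bb-ps the log2 fold change was 1.34 (SE 0.79, edgeR adjusted p = 0.365).

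Summed over their genes, H3 and H4 had the lowest levels of the 5 types in each library. Hist2h3c1 was at 0 to 2.60 CPM in tumors (median 1.17) and at 3.32, 6.89 and 10.3 in the islets, and did not overlap, with a log2 fold change of -2.40 (SE 0.98, edgeR adjusted p = 0.224). All of its windows are shared. Its neighbour copy Hist2h3c2 was not tested and was at 0.127 to 0.514 CPM in tumors and at 0.359, 8.21 and 11 in the islets, so that the pair together was at 0.127 to 2.89 CPM in tumors and at 3.68, 15.1 and 21.3 in the islets. Hist1h3d (not tested) was at 0.0848 to 0.422 CPM in tumors and at 0.530, 4.48 and 2.20 in the islets.

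The H4 gene Hist1h4i was at 3.79 to 9.88 CPM in tumors (median 4.53) and at 4.28, 8.77 and 9.52 in the islets. These ranges overlapped, and the log2 fold change was -0.45 (SE 0.40, edgeR adjusted p = 0.561). Hist1h4h was at 0.297 to 2.48 CPM in tumors and at 2.26, 4.63 and 7.47 in the islets, with a log2 fold change of -2.22 (SE 0.62, edgeR adjusted p = 0.152; 0.0435 without the library labelled NI1). Hist1h4j (not tested) was at 0.155 to 0.831 CPM in tumors and at 0.445, 4.14 and 7.30 in the islets. The 8 members that reached 1 CPM in NI2 and NI3 alone were 3 H3 genes of the Hist1 group (Hist1h3b, Hist1h3d and Hist1h3e), Hist2h3c2, Hist2h4 and the H4 genes Hist1h4c, Hist1h4j and Hist1h4m, some of which are named here after their values were seen.

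Summed over all genes of a type, which removes the split between copies of that type, the types differed in how tumors compared with islets. Reads shared between types (Hist1h1e with Hist1h2be) or with genes outside the clusters (Gm20634) may remain in the sums. These sums carry no test. The H1 sum was at 29.5, 18.4 and 28.8 CPM in M1, M2 and M3, at 37.5, 47.8 and 45.5 in M4, M5 and M6, and at 72.2, 294 and 172 in the islets. Its mean was 34.6 ± 11.2 (SD, n = 6) in tumors and 180 ± 111 (SD, n = 3) in islets, a log2 ratio of -2.38, and the groups did not overlap.

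The H2A sum was at 83.2, 66.4 and 123 CPM in the functional tumors, 172, 251 and 79.8 in the non-functional tumors and 84.2, 126 and 155 in the islets. The groups overlapped, and the log2 ratio was 0.09. Hist1h2ap made up 69.6% of the tumor sum. Without it the H2A sum was 39.3 ± 12.7 CPM (SD, n = 6) in tumors and 92.0 ± 50.5 (SD, n = 3) in islets, a log2 ratio of -1.23, with M1, M4 and M5 above the library labelled NI1.

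The H2B sum was 66.7 ± 20.6 CPM (SD, n = 6) in tumors and 69.5, 198 and 182 in the islets, with a log2 ratio of -1.17. The H3 sum was at 1.00 to 5.84 CPM in tumors and at 5.27, 25.5 and 28.2 in the islets, with a log2 ratio of -2.57. The H4 sum was at 6.06 to 17.1 CPM in tumors and at 9.80, 26.6 and 33.6 in the islets, with a log2 ratio of -1.25. For these 3 types every tumor lay below NI2 and NI3, while the library labelled NI1 lay within the range of the tumors.

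**Figure D3:**
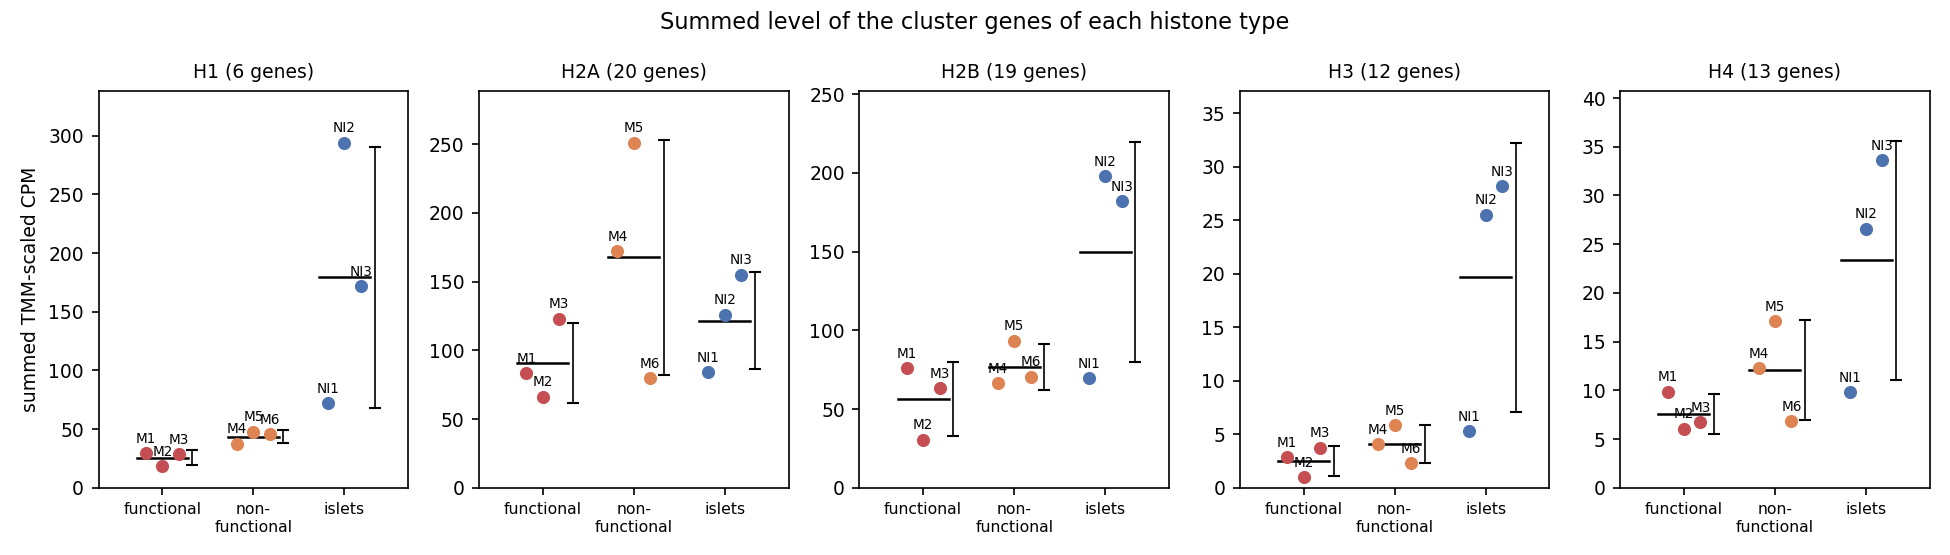
Summed TMM-scaled CPM of the cluster genes of each histone type, 1 point per library, with the group mean (line) and SD (bar beside it). The H1 sum is lower in all 6 tumors than in the 3 islet libraries, the H2A sum overlaps, and the library labelled NI1 lies at the level of the tumors for H2B, H3 and H4.

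Markers of other cell types moved in the same contrast. Of 8 lymphoid markers, all tested, 2 were lower (background 0.258%) and 0 higher (background 0%) in tumors (edgeR, adjusted p under 0.05). Their summed level was 19.9 to 118 CPM in tumors and 174 to 228 in islets. Of 15 genes of the dissociation response (immediate early genes that rise when tissue is taken apart), 10 were lower (background 0.258%) and 0 higher (background 0%). Their sums were 278 to 464 CPM in tumors and 972 to 3416 in islets. The acinar markers, 8 of 10 tested, summed to 0.764 to 220 CPM in tumors and 333 to 6077 in islets. Of these, 0 were called and 8 were lower at an unadjusted p under 0.05 (background 9.14%), and 1 of the 10 was at 0 in all libraries. Of 10 beta cell markers 0 were called, and their sums were 18848 to 117011 CPM in tumors and 122162 to 365052 in islets. Of 7 neuroendocrine markers 0 were called, with sums of 10643 to 33946 CPM in tumors and 18552 to 38321 in islets. Of 7 macrophage markers 0 were called and 7 were higher at an unadjusted p under 0.05 (background 10.7%), with sums of 414 to 1141 CPM in tumors and 173 to 387 in islets. The part of these differences in the levels of the histone genes was not tested, and in bulk samples fewer cells of a type and less RNA per cell cannot be told apart.

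Between functional and non-functional tumors no tested member passed the threshold. By edgeR, 0 of 21 members were higher (background 0%) and 0 lower (background 0%) at an adjusted p under 0.05, and at an unadjusted p under 0.05 the counts were 0 (background 4.71%) and 0 (background 5.58%). DESeq2 called 0 members as well, higher (background 0.142%) or lower (background 0.573%). The smallest adjusted p over the members was 0.517, and over all genes 0.455. The log2 fold change of functional over non-functional tumors was below 0 for 17 of the 21 members, with a median of -0.52 against 0.01 over all tested genes. For Hist1h1c it was -0.79 (SE 0.42, edgeR adjusted p = 0.542), and with TMM scaling each functional tumor lay below each non-functional one. For Hist1h2ap, which overlapped, it was -1.08 (SE 0.57, edgeR adjusted p = 0.539). The groups did not overlap in 2 members, Hist1h1c and Hist2h2aa1, both lower in functional tumors (background 6.24%), and in 0 members that were higher (background 8.77%). Neither separation was firm. On library totals without TMM, Hist1h1c was lower in M4 than in M1 and M3. Reads cannot be assigned to Hist2h2aa1 or its copy Hist2h2aa2, and the sum of the pair overlapped, at 5.87 CPM in M1 and 5.06 in M4.

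The sums of the types were lower in functional tumors by the log2 ratio of means, at -0.77 for H1, -0.89 for H2A, -0.44 for H2B, -0.68 for H3 and -0.67 for H4. The H1 sum was the only one whose groups did not overlap, at 25.5 ± 6.18 CPM (SD, n = 3) in functional and 43.6 ± 5.43 (SD, n = 3) in non-functional tumors. This separation depended on the TMM factor of M4 (0.693). On library totals alone the groups overlapped. M4 had 947 H1 reads of 36468280, a lower share than in M1 (1465 of 44310542) and M3 (1585 of 41769849).

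Several lists of markers of other cell types had log2 fold changes of the same sign in this contrast, with 0 called in any list by edgeR. Of these, the 8 tested acinar markers were all lower at an unadjusted p under 0.05 (background 5.58%), with a median log2 fold change of -9.27 and sums over the list of 0.764 to 1.05 CPM in functional and 24.1 to 220 in non-functional tumors. Of the 8 lymphoid markers, all with log2 fold changes below 0, 3 were lower at that p, and their sums were 19.9 to 101 CPM and 85.2 to 118. The 7 macrophage markers also had log2 fold changes below 0, none at that p, with sums of 417 to 673 CPM and 414 to 1141. The dissociation response genes summed to 278 to 342 CPM in functional and 353 to 464 in non-functional tumors. The S phase genes had the other sign in 21 of 24, none at that p, with sums of 2093.1 to 2790.5 CPM and 1516.4 to 1815.3. The part of these differences in the histone genes was not tested.

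Genes that serve histone mRNA and protein outside the clusters were read in the same fit, and none was called lower. The lists were 16 genes of histone mRNA synthesis and processing, 11 histone variants outside the clusters, 21 histone chaperones and 24 S phase genes, all of them tested. None of these 72 genes was called with all 9 libraries by edgeR. At an unadjusted p under 0.05, 4, 3, 8 and 16 genes of the 4 lists were higher (background 10.7%) and 0, 0, 1 and 0 were lower (background 9.14%), and DESeq2 called 1, 1, 4 and 9 higher (background 4.92%) and 0 lower (background 3.14%). The median log2 fold changes were 0.34, 0.50, 0.20 and 1.34. Without the library labelled NI1, edgeR called 2, 1, 6 and 22 higher and 0 lower, against the background of 5.34% given above.

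Slbp, which binds the stem-loop, was at 62.3, 66.0 and 85.7 CPM in M1, M2 and M3, at 47.5, 58.8 and 61.3 in M4, M5 and M6, and at 58.6, 24 and 22.8 in the islets. The tumors lay above NI2 and NI3, and the library labelled NI1 lay among them. Slbp had a log2 fold change of 0.85 (SE 0.32, edgeR adjusted p = 0.196), and 1.44 (adjusted p = 0.0115) without that library. Eri1, an exonuclease that trims the end of histone mRNA, was higher in every tumor (36.9 to 63.1 CPM) than in the islets (34.6, 18.5 and 21.0), with a log2 fold change of 0.95 (SE 0.27, edgeR adjusted p = 0.152; 0.0244 without the library labelled NI1). Npat, the coactivator of histone gene transcription, had a log2 fold change of 0.42 (SE 0.29, edgeR adjusted p = 0.447), Casp8ap2 (FLASH), a factor in the cleavage of histone pre-mRNA, one of 0.69 (SE 0.30), and Srrt (ARS2), which acts with the cap-binding complex, one of 0.45 (SE 0.19).

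Among the variants, Cenpa, the H3 variant of centromeres, was at 16.5 to 64.7 CPM in tumors and at 16.6, 9.62 and 2.87 in the islets, with a log2 fold change of 1.85 (SE 0.56, edgeR adjusted p = 0.161; 0.0417 without the library labelled NI1). It was the only variant called without that library. The linker variant H1fx had a log2 fold change of 0.99 (SE 0.39), H2afv, an H2A.Z form, 0.65 (SE 0.28), and the macroH2A gene H2afy2 0.50 (SE 0.25), none of them called.

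The chaperones with the smallest p-values were Asf1b, Hjurp, Nasp and Chaf1a. Asf1b and Chaf1a, which hand new H3 and H4 to replicated DNA, had log2 fold changes of 1.94 (SE 0.48) and 1.83 (SE 0.62), and of 2.86 and 3.36 without the library labelled NI1 (edgeR adjusted p = 0.00519 and 0.00245). Nasp, a carrier of H3 and H4, was at 53.5 to 89.7 CPM in tumors and at 52.8, 25.0 and 21.3 in the islets. Hjurp, the chaperone of Cenpa, was at 158 to 322 CPM in tumors and at 149, 101 and 59.8 in the islets.

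All 24 S phase genes had log2 fold changes above 0. Their summed level was 1516.4 to 2790.5 CPM in tumors, and 1600.7, 426 and 293 in NI1, NI2 and NI3, so the library labelled NI1 lay within the tumor range. Top2a, the topoisomerase of dividing cells, had a log2 fold change of 2.19 (SE 0.57, edgeR adjusted p = 0.148; 0.0156 without the library labelled NI1), and Ccna2, the cyclin of S phase and G2, one of 1.66 (SE 0.49, edgeR adjusted p = 0.161; 0.0416). Tyms, which makes thymidylate, had 1.42 (SE 0.36, edgeR adjusted p = 0.148; 0.00846), and Cdc45, part of the replicative helicase, 1.45 (SE 0.40, edgeR adjusted p = 0.152; 0.00256). With NI2 and NI3 as the islets, 22 of the 24 S phase genes were called higher in tumors (background 5.34%). Of the 21 tested cluster genes, 9 were called lower (background 3.17%) and Hist1h2ad was called higher (background 5.34%). Of these 9, Hist1h1e, Hist1h2ac, Hist2h2aa2 and Hist1h2bh had passed the filter only with islet libraries counted.

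**Figure D4:**
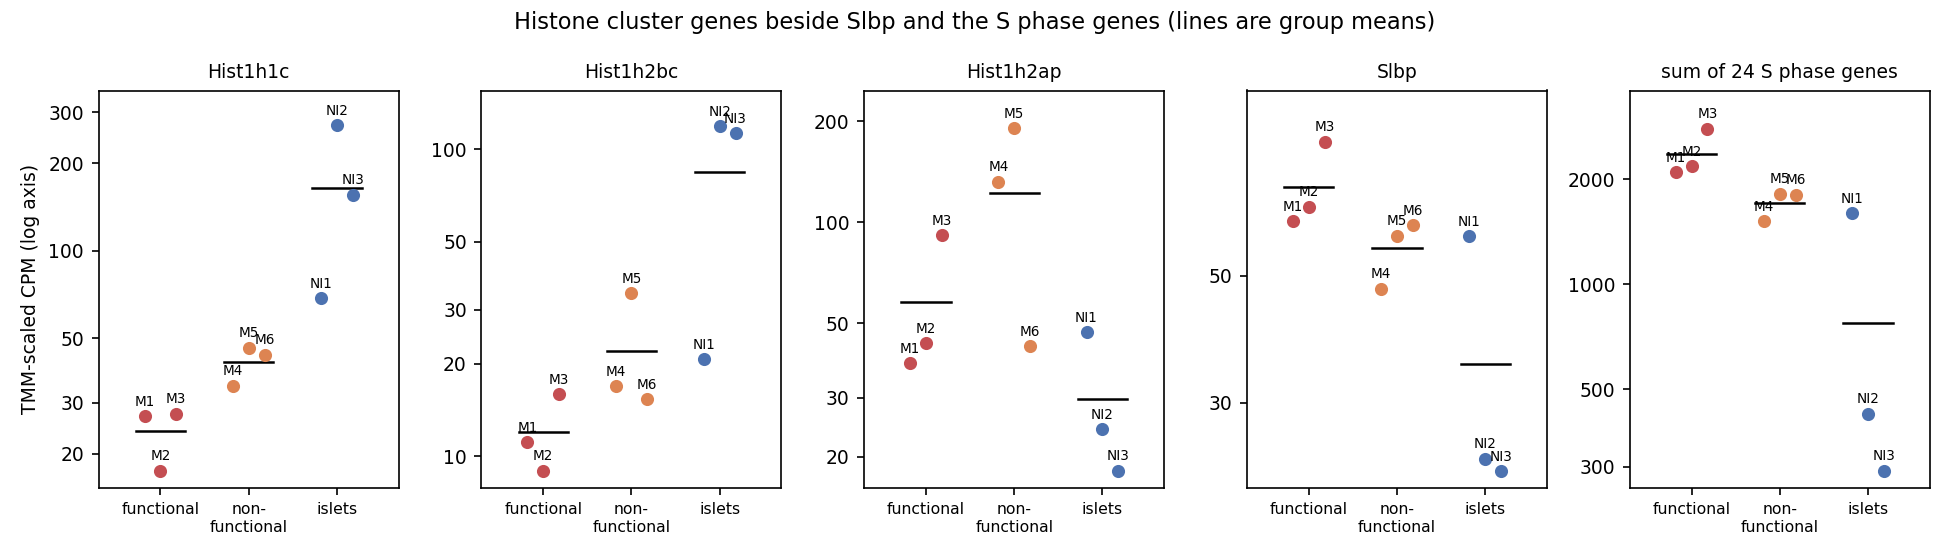
TMM-scaled CPM (log axis) per library for Hist1h1c, Hist1h2bc, Hist1h2ap, Slbp and the sum of the 24 S phase genes, with group means as lines. All tumors lie below NI2 and NI3 for Hist1h1c and Hist1h2bc and above them for Hist1h2ap, Slbp and the S phase sum, and the library labelled NI1 lies near the tumors in all 5 panels.

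The annotated 3′ end of a member went with its level, as a description across genes that share libraries. The limit of 100 bases that divides the groups was chosen after the annotation was seen. In 23 coding members the annotated transcript that holds the stem-loop ended within 100 bases after it, and 6 of these were tested (Hist1h2ad, Hist1h2ap, Hist2h2aa1, Hist2h2aa2, Hist1h2bb and Hist1h4h). In another 23 it ran over 100 bases past it, and 11 of these were tested. The median level over the 9 libraries was 0.419 CPM per kb in the first group and 0.991 in the second. In Hist1h1c the annotated transcript ran 840 bases past the stem-loop, in Hist1h1e 1153, in Hist1h2be 1861 and in Hist1h2ac 2010. It ran 3 bases past it in Hist1h2ap and 42 in Hist1h2ad. These lengths did not divide members by sign. Hist2h2aa1 and Hist2h2aa2, lower in tumors as a pair, ended 35 bases past it. Hist1h4h, with a log2 fold change below 0, ended 46 bases past it. Hist3h2a and Hist3h2ba, with values above 0 in all 9 libraries, ran 1643 and 169 bases past it.

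A further 4 coding members (3 tested, Hist1h2bc and Hist2h2be among them) had no stem-loop match and ended over 100 bases past the stop codon, with a median of 4.27 CPM per kb. The other 17, annotated to end under 100 bases past it, had a median of 0.129 and none was tested. Most of these 17 have no annotated sequence past the stop codon, so their group does not describe a kind of 3′ end. The poly(A) signal AATAAA was present after the stop codon of the transcript with the stem-loop in 0 of 23 members of the first group and in 14 of 23 of the second, and in all 4 members of the third. It was searched anywhere after the stop codon, so a longer annotated end had more places to hold it. Since the groups were cut by length, this difference is partly set by how they were made. All 6 tumors lay below all 3 islet libraries in 8 of the 23 members that ran past the stem-loop and in 2 of the 23 that ended near it (background 2.66% of the 31582 genes with a read), and above them in 0 and 1 (background 2.86%). Below NI2 and NI3 alone the counts were 16 and 7 (background 11%), and above them 0 and 3 (background 10.4%). These counts include members that were not tested. Whether reads came from the stem-loop or from the longer form was not tested, since counts were given per gene.

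**Figure D5:**
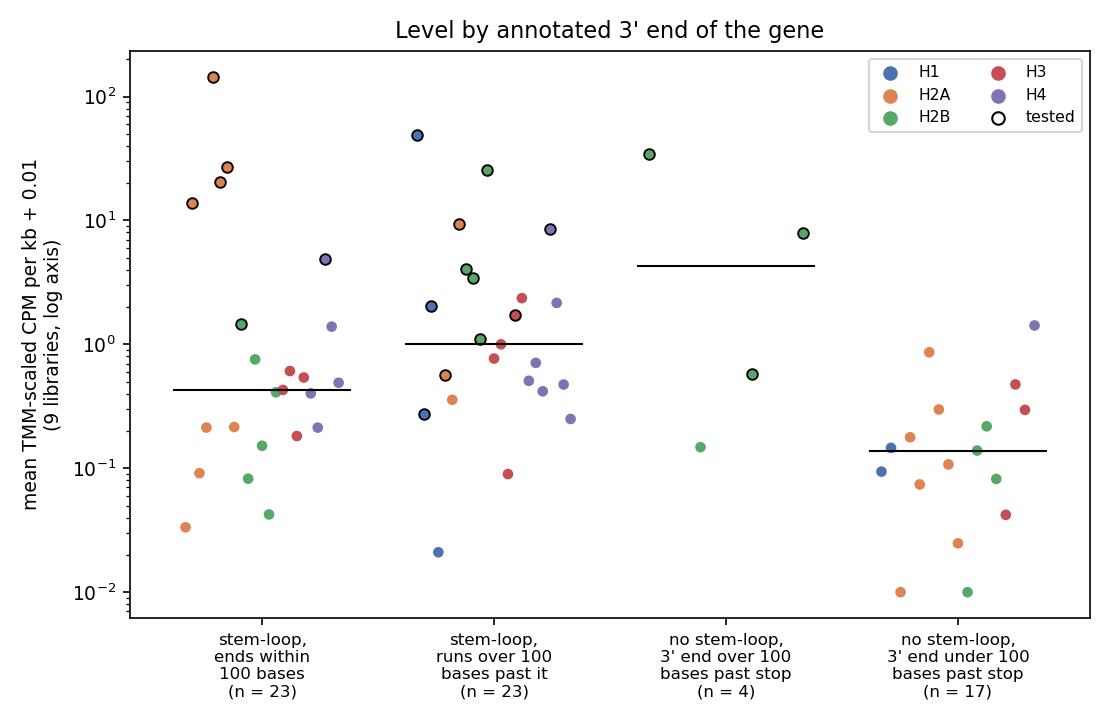
Mean TMM-scaled CPM per kb over the 9 libraries plus 0.01 (log axis) for the 67 coding members, grouped by the annotated 3′ end and coloured by histone type, with group medians as lines and tested members outlined. Hist1h2ap at 145 CPM per kb is the highest member of the group that ends near the stem-loop, and no member of the right-hand group was tested.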

How the data were processed

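The deposited table holds counts per gene, as whole numbers that the authors had not scaled between libraries. They trimmed single-end reads with Trimmomatic 0.38 and quantified transcripts with Salmon 1.4.0 on mm10, and the submitters' processing notes also name DESeq2. Salmon shares reads of near-identical copies between them by estimate, which is why sums per type are given. Of the table's identifiers, 54094 matched GENCODE M21 and 253 did not.

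The 70 genes and all lists were chosen with earlier results of these data known. A gene was tested if 3 or more libraries reached 1 CPM on their totals, before TMM scaling, giving 15532 genes. TMM-scaled counts were fitted with edgeR 4.0.16 (quasi-likelihood, R 4.3.3). Tumors were fitted as 1 group of 6 against 3 islet libraries, and the 2 tumor groups were compared within a 3-group fit. Tests were two-sided, with p-values adjusted by the Benjamini-Hochberg method over all tested genes, and a threshold of 0.05. A standard error is the log2 fold change divided by the square root of F. P-values measure only the spread between these samples. Sums and their ratios carry no test. The fits were tested on simulated data.

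The named genes are the 3 highest members of each type, the 5 highest and 5 lowest log2 fold changes, members past the threshold, Hist1h1b, Hist1h1c and Hist1h2bc, and from each list the 4 genes with the smallest p plus Slbp and Npat. Others are named as copies or neighbours of these. DESeq2 1.42.0, limma 3.58.1, other scalings and filters, a replicate block and each library left out were the alternatives. Depth per library limits the precision, and a count of 3 was taken as the limit of detection, for counting error only.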

Additional observations from a re-analysis of the deposited data

Results flagged for a closer look

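A gap test over the 6 tumors was applied to 44 measures (the sums of the 5 types and the named genes). It set a single tumor apart in 5 of them, where chance at 1 in 20 gives 2.2. M5 had the highest level of Hist1h2bc (34.0 CPM), Hist1h4h (2.48 CPM) and the linker variant H1fx (94.5 CPM). M3 had the highest level of the chaperone gene Chaf1a (77.8 CPM). M1 was the only tumor with reads assigned to Hist2h2aa2 (1.17 CPM), whose reads are shared in full with Hist2h2aa1.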

How the results depend on the processing

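Of the summary counts and sums, 226 values kept their place under an alternative and 19 did not. Members lower in tumors numbered 2 with all libraries (background over all genes 0.258%), 0 with DESeq2 size factors in edgeR (0.174%), 5 with no filter (0.31%), 9 by DESeq2 (3.14%), 1 by limma-trend (0.2%), 1 with mitochondrial genes removed (0.238%), and 0 to 9 with a library left out (0.0451% to 3.17%). They numbered 0 with a replicate block (0.18%), in which the label numbers 1 to 3 of tumors and islets were paired. Same-numbered libraries did not deviate together (r = -0.024, 0.007 and -0.103), which gave no sign that the numbers pair the samples. With groups of 3 that include the library labelled NI1, these values cannot exclude a pairing. No paired analysis was possible between the tumor groups because they share no number. Members higher numbered 0, but 2 by DESeq2 (4.92%) and 0 to 1 with a library left out (0% to 5.34%). Genes of the 4 lists called higher numbered 0, but 15 by DESeq2 and 0 to 31 with a library left out, the highest counts being those without the library labelled NI1. Without TMM the median log2 fold change of all tested genes was 0.24 (0.03 with TMM) in tumors against islets and 0.32 (0.01 with TMM) in functional against non-functional tumors, and the H1 ratio of the latter was -0.47. For the named genes, 805 fold changes kept their sign and side of the threshold, 40 passed it only under the alternative, 20 no longer passed it, and 19 turned sign. Signs turned only for values that passed no threshold. In tumors against islets these were Hist3h2a (-0.0033 by limma-trend, -0.19 with the replicate block, -0.11 to 0.25 with a library left out) and Hist3h2ba (-0.14 with the replicate block). In functional against non-functional tumors they were Hist1h1e (0.21 without TMM), Hist3h2a (0.12 without TMM) and Hist1h2bh (0.17 without TMM, 0.03 by limma-trend), and with a library left out Hist1h1e (-0.68 to 0.45), Hist3h2a (-0.82 to 0.02), Hist1h4i (-0.57 to 0.18), Hist1h2ac (-1.35 to 0.02), Hist1h2bh (-0.49 to 0.42) and Hist1h2be (-0.31 to 0.45). The cause of these changes was not tested. The filter set how many members were tested: 21 in the main setting, 40 with filterByExpr and 67 with none. Depth limits the 35 members that stayed under 1 CPM in all libraries.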
